A study of Mus musculus with 36 samples.

Results

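The 9 genes described here make, move, sense and break down serotonin: the tryptophan hydroxylases Tph1 and Tph2, the decarboxylase Ddc, the monoamine oxidases Maoa and Maob, the carriers Slc6a4 and Slc18a2, and the receptors Htr2a and Htr2b. They were taken by gene symbol from a table of 56748 genes, and each symbol had 1 row. The set was proposed because Tph2 was far higher in visceral fat on a high-fat diet (HFD), so its members were chosen by the HFD and normal chow diet (NCD) values in visceral fat. Those values are given below as a description, with no test, for all 9 genes.

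The study asked what MLKL, a protein that carries out necroptotic cell death, does in adipocytes during diet-induced obesity. RNA-seq libraries of visceral white adipose tissue (visWAT, the epididymal depot) and of liver came from the same 18 male C57BL/6J mice, 36 libraries in all, with 1 mouse and 1 tissue to a library and no pooling. MlklAdi-KO mice carried loxP-flanked Mlkl alleles and an Adipo-Cre transgene active in mature adipocytes, whereas WT mice were littermates with the same floxed alleles and no Cre, so the deletion was directed at adipocytes and not at the other cells of the fat pad or at the liver. Feeding began at 16 weeks of age and lasted 16 weeks, with 4 WT and 4 MlklAdi-KO mice on NCD and 5 WT and 5 MlklAdi-KO mice on HFD.

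Serotonin is made from tryptophan in a pair of steps. Tryptophan hydroxylase, which needs the cofactor tetrahydrobiopterin, sets the rate, and the decarboxylase Ddc finishes the molecule. Tph1 is the form of the gut, the pineal gland and mast cells, and Tph2 is known as the form of serotonergic neurons. Slc6a4 (SERT) takes serotonin up across the cell membrane, Slc18a2 (VMAT2) packs it into vesicles, the monoamine oxidases of the outer mitochondrial membrane break it down, and Htr2a and Htr2b are receptors that signal through Gq. Serotonin made outside the brain is known to act on adipose tissue and liver.

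The libraries held 20875463 to 30322171 reads on genes. Mlkl itself was at 1.96 to 2.72 FPKM (fragments per kilobase of gene, scaled to library size) in visWAT of MlklAdi-KO mice and at 4.58 to 6.28 FPKM in visWAT of WT mice on HFD. On NCD the WT range was 2.29 to 5.11 FPKM, and the library labelled WT NCD visWAT mouse 182, at 2.29 FPKM, lay inside the knockout range. Markers of seminal vesicle and epididymis summed to 247529 FPKM in the WT NCD visWAT library of mouse 183, to 323 in that of mouse 182, to 82.4 in the MlklAdi-KO NCD library of mouse 197 and to at most 4.43 in every other visWAT library. Hepatocyte markers summed to between 42329 and 66509 FPKM in liver, and mature adipocyte markers to between 5038 and 21966 FPKM in visWAT, as the tissue labels say.

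Tph2 and Htr2b were the members with the greatest diet difference in visWAT, so the 250 bases before their transcription starts are shown, to let their promoters be read beside that shared pattern. The sequences are from RefSeq (GRCm39), which held promoter entries for 8 of the 9 genes. Both genes lie on the minus strand, Tph2 promoter at chr10:115020928-115021177 and Htr2b promoter at chr1:86039703-86039952, and both are printed 5′ to 3′ toward the gene. Capitals mark matches to TATAAA (the TATA box), TGANTCA (AP-1) and GAGGAA (bound by ETS factors such as PU.1), searched on both strands together with CCAAT, where no match overlapped another.
Tph2: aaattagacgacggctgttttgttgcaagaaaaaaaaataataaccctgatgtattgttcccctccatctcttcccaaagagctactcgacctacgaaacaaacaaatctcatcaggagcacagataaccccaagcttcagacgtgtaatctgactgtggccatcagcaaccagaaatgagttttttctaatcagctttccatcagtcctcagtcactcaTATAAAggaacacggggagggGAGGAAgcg
Htr2b: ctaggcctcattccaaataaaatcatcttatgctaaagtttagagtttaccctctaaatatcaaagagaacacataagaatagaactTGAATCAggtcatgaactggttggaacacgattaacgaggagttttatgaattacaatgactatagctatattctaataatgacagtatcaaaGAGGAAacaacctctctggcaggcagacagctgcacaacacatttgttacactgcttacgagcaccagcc
The Tph2 window held TATAAA starting 30 bases before the start and GAGGAA 9 bases before it. The Htr2b window held an AP-1 match 163 bases before the start and GAGGAA 70 bases before it. These distances are from the RefSeq start. Between the Htr2b window and the gene start given with the FPKM values lie 10 bases, against 0 for Tph2. Neither window held CCAAT. Over 32851 promoter windows of the same length, 12.4% held TATAAA, 6.75% TGANTCA, 23.3% GAGGAA and 33.8% CCAAT, so GAGGAA, the only motif that both windows held, is common.

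In visWAT, Tph2 went from barely detected on NCD to the member with the highest mean level on HFD. The gene lies on chromosome 10 (GRCm39, 114914546 to 115020927, minus strand). In the 4 WT NCD libraries it was at 0.117, 0.067, 0.244 and 0.068 FPKM, and in the 5 WT HFD libraries at 19.0, 27.9, 20.9, 19.4 and 26.4 FPKM. In the 4 MlklAdi-KO NCD libraries it was at 0.0954, 0.0904, 0.255 and 0.0839 FPKM, and in the 5 MlklAdi-KO HFD libraries at 7.32, 30.0, 27.8, 2.46 and 7.56 FPKM. Every HFD library lay above every NCD library. The WT HFD libraries lay close together, whereas the MlklAdi-KO HFD libraries split into mice 152 and 153, close to the highest WT level, and mice 151, 156 and 157, below every WT mouse.

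The mean rose from 0.124 ± 0.0832 FPKM (SD, n = 4) to 22.7 ± 4.12 FPKM (SD, n = 5) in WT mice, a 183-fold difference of means. In MlklAdi-KO mice it went from 0.131 ± 0.0828 FPKM (SD, n = 4) to 15 ± 12.9 FPKM (SD, n = 5), a 115-fold difference. The NCD values rest on 6 to 25 reads a library and the HFD values on 209 to 3153 reads, so the size of the fold depends on a small count on NCD. On the log2(FPKM + 1) scale, which shrinks changes from a low level, the difference was 4.38 in WT and 3.37 in MlklAdi-KO mice.

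Htr2b, a Gq-coupled serotonin receptor, had the next greatest diet difference. The gene spans 86026748 to 86039692 of chromosome 1. It was at 0.106, 0.136, 0.121 and 0.169 FPKM in WT NCD visWAT and at 3.2, 5.11, 4.97, 3.85 and 4.63 FPKM in WT HFD visWAT. In MlklAdi-KO mice it was at 0.115, 0.229, 0.179 and 0.081 FPKM on NCD and at 1.5, 3.78, 3.99, 0.7 and 0.292 FPKM on HFD. The groups did not overlap in either genotype, and mice 152 and 153 were again the highest of the MlklAdi-KO HFD mice, with mice 156 and 157 the lowest. The means differed 32.8-fold in WT mice (0.133 ± 0.0268 against 4.35 ± 0.806 FPKM, SD, n = 4 and 5) and 13.6-fold in MlklAdi-KO mice (0.151 ± 0.0662 against 2.05 ± 1.73 FPKM, SD, n = 4 and 5). Htr2b shares 252 bases of exon with Psmd1 on the opposite strand, and strand was not stated for the counting; Psmd1 was at 8.82 to 16.5 FPKM in WT NCD and 9.54 to 10.7 FPKM in WT HFD visWAT.

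The monoamine oxidases, which remove the amine group of serotonin and other amines, moved in opposite directions in visWAT although they sit next to each other on chromosome X (Maoa 16485937 to 16554057, plus strand, and Maob 16575521 to 16683605, minus strand), 21463 bases apart. Maoa was at 6.5, 5.34, 7.36 and 4.07 FPKM in WT NCD and at 9.27, 13.5, 13.9, 12.3 and 10.2 FPKM in WT HFD visWAT. In MlklAdi-KO mice it was at 5.94, 5.55, 5.85 and 7.26 FPKM on NCD and at 11.1, 11.7, 13.7, 8.13 and 10.2 FPKM on HFD. All HFD libraries lay above all NCD libraries of their genotype, with means 2.03-fold apart in WT and 1.78-fold apart in MlklAdi-KO mice.

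Maob was at 22.5, 24.5, 22.0 and 17.2 FPKM in WT NCD and at 8.52, 6.96, 7.15, 9.02 and 10.2 FPKM in WT HFD visWAT. In MlklAdi-KO mice it was at 23.1, 24.2, 22.9 and 23.3 FPKM on NCD and at 8.12, 8.93, 8.0, 13.1 and 13.5 FPKM on HFD. All HFD libraries lay below all NCD libraries, with means 2.57-fold lower on HFD in WT and 2.26-fold lower in MlklAdi-KO mice. On these FPKM values, which are per length of gene, Maob was above Maoa in every NCD library, and Maoa was above Maob in 4 of 5 WT HFD libraries, both standing at 10.2 FPKM in mouse 164. In MlklAdi-KO HFD mice Maoa was above Maob in 151, 152 and 153 and below it in 156 and 157.

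The other 5 genes were low in visWAT. Tph1 (chromosome 7, 46294065 to 46321961), the hydroxylase of peripheral tissues, was at 0.011 to 0.202 FPKM (2 to 39 reads), Ddc at 0.0151 to 0.62 FPKM and Htr2a at 0.0301 to 0.156 FPKM (5 to 26 reads), with HFD and NCD libraries overlapping for all 3 in both genotypes. Ddc thus lay below Tph2 in every HFD library. Among the carriers, Slc18a2 was at 0.218 to 0.57 FPKM and its diet groups overlapped in both genotypes. Slc6a4 was at 0.171 to 0.526 FPKM in WT NCD and 0.415 to 0.611 FPKM in WT HFD visWAT, which overlapped. In MlklAdi-KO mice the Slc6a4 values on HFD, 0.235, 0.23, 0.287, 0.247 and 0.144 FPKM, lay below those on NCD, 0.397, 0.553, 0.467 and 0.343 FPKM.

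Counted over the set, 3 of 9 genes (Tph2, Maoa and Htr2b) had every HFD library above every NCD library in WT visWAT, and 1 of 9 (Maob) had every one below. Among 23190 genes with at least 10 reads the shares were 15.2% above and 10.5% below. In MlklAdi-KO visWAT 3 of 9 lay above and 2 of 9 (Maob and Slc6a4) below, where 14.0% and 13.8% of 23025 genes did. These counts come from the contrast that chose the genes, so nothing is read from them. Over all visWAT libraries 4 of 9 genes had a mean of at least 0.5 FPKM, Tph2 and Htr2b by their HFD values alone, and over all liver libraries 3 of 9 did (Ddc, Maoa and Maob). Leaving out WT NCD mice 182 and 183 gave log2 differences of 4.42 for Tph2, 2.24 for Htr2b, 0.88 for Maoa and -1.40 for Maob in WT visWAT.

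**Figure D1:**
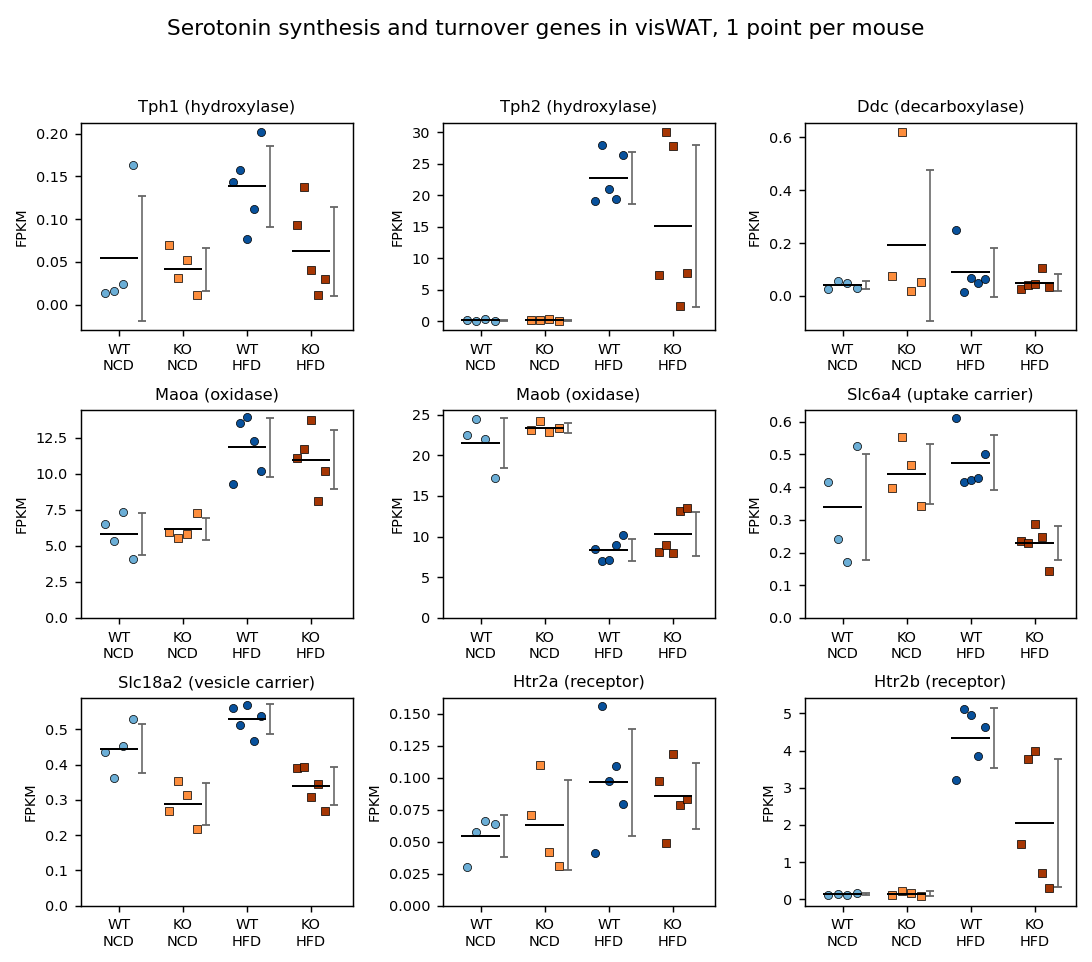
FPKM of the 9 genes in visWAT (vertical axes, a scale of its own per gene) for WT and MlklAdi-KO (KO) mice on NCD and HFD. Each point is 1 mouse, the black line is the group mean and the grey bar 1 SD to each side; Tph2 and Htr2b lie near 0 in all NCD mice, and the KO HFD mice are spread from 2.46 to 30.0 FPKM for Tph2.

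Other cell types moved with diet in the same libraries. All 8 macrophage markers were detected, and their summed level was 180 to 275 FPKM in WT NCD, 239 to 412 in MlklAdi-KO NCD, 1537 to 2166 in WT HFD and 611 to 1987 in MlklAdi-KO HFD visWAT. The sum per MlklAdi-KO HFD mouse was 1238 for mouse 151, 1877 for 152, 1987 for 153, 646 for 156 and 611 for 157, so the 2 mice with the highest Tph2 had the highest macrophage sums. By limma with Benjamini-Hochberg adjustment, 8 of 8 macrophage markers were higher on HFD in WT and 6 of 8 in MlklAdi-KO visWAT. The 9 mature adipocyte markers summed to 10758 to 21966 FPKM on NCD, 5038 to 6426 in WT HFD, and 10395, 6070, 5668, 12566 and 12124 FPKM in MlklAdi-KO HFD mice 151, 152, 153, 156 and 157. That sum was led by Cfd on NCD, and by limma 1 marker rose and 5 fell of 9 in WT, and 2 rose and 3 fell in MlklAdi-KO visWAT.

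Mast cells and platelets hold serotonin, and their markers were examined too. The 10 mast cell markers summed to 14.5 to 91 FPKM in WT NCD, 29.8 to 39.2 in MlklAdi-KO NCD, 54.7 to 119 in WT HFD and 26.2 to 64.2 in MlklAdi-KO HFD visWAT, and none was at 0 throughout a group. The 91 FPKM was that of mouse 183, whose library held the most seminal vesicle and epididymis markers. WT NCD mice 165, 180 and 182 were at 29.7, 16.3 and 14.5 FPKM, below every WT HFD mouse. Gata2 led the WT NCD sum, with a mean of 17.5 FPKM, and Mcpt4 led the other visWAT groups. By limma with the same adjustment, 6 of the 8 tested were higher on HFD in WT mice and 0 of 7 in MlklAdi-KO mice. The 6 platelet and megakaryocyte markers summed to 33.1 to 60.5 FPKM on NCD and 49 to 105 FPKM on HFD, with Gp1bb at 0 in every library. That sum came almost wholly from 1 gene, Pf4. Its means were 33.8 FPKM in WT NCD, 49 in MlklAdi-KO NCD, 83.1 in WT HFD and 70 in MlklAdi-KO HFD visWAT. By limma 2 of 3 platelet markers tested were higher on HFD in WT and 1 of 4 in MlklAdi-KO mice. The sums of nerve markers and of neuroendocrine markers were also higher on HFD, the latter almost wholly through 1 gene, Syp. The 6 neuroendocrine markers summed to 1.01 to 2.98 FPKM in WT NCD, 1.76 to 3.04 in MlklAdi-KO NCD, 6.06 to 6.6 in WT HFD and 5.66 to 9.38 FPKM in MlklAdi-KO HFD visWAT. Syp, a synaptic vesicle protein, alone had means of 1.69, 2.41, 6.01 and 7.16 FPKM in these groups. Neurod1 was at 0 in every group, and Insm1 and Scg2 were at 0 throughout WT NCD. The sympathetic nerve and Schwann cell markers summed to 2.94 to 5.21, 3.14 to 4.07, 6.3 to 12.2 and 5.39 to 11 FPKM in the same order of groups, led by Uchl1. Dbh was at 0 throughout WT HFD, Th throughout MlklAdi-KO HFD, and both throughout MlklAdi-KO NCD. By limma 1 of 1 neuroendocrine and 2 of 2 nerve markers tested were called higher on HFD in both genotypes. The part of these cell types in the Tph2 and Htr2b values was not tested, and in whole tissue fewer cells of a type and less RNA per cell cannot be told apart.

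**Figure D2:**
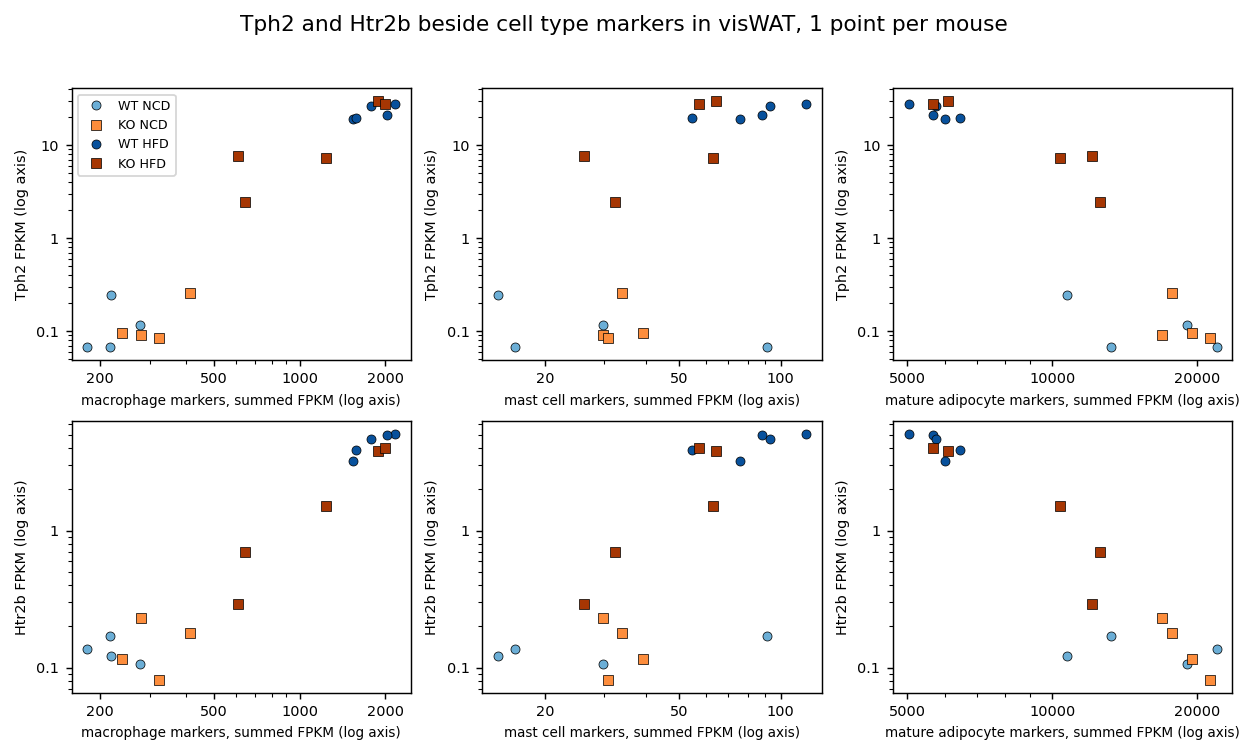
Tph2 (upper row) and Htr2b (lower row) in FPKM against the summed FPKM of macrophage, mast cell and mature adipocyte markers in visWAT, all on log axes, with 1 point per mouse and colours and shapes for the 4 groups. On HFD the KO mice 156 and 157, with macrophage sums of 646 and 611 FPKM, also had the lowest Htr2b.

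Likeness to Tph2 was described over the 10 HFD visWAT libraries and 13962 genes, as correlations across mice of 2 genotypes with no p. The 5 nearest genes were Loxl2, a collagen crosslinking enzyme (Pearson's r = 0.994, Spearman's rho = 0.939), Otop1, a proton channel (r = 0.989, rho = 0.903), Gng12, a G protein subunit (r = 0.987, rho = 0.939), Gtse1 (r = 0.984, rho = 0.939) and the adhesion molecule Alcam (r = 0.984, rho = 0.855). Without the 2 libraries farthest from the median of Tph2, r was 0.989, 0.978, 0.960, 0.970 and 0.942. Htr2b ranked 882 with r = 0.884 and rho = 0.733 (r = 0.918 without those 2 libraries). Maoa had r = 0.688 and Maob r = -0.679. The macrophage marker sum had r = 0.902 and the mature adipocyte sum r = -0.942, so many genes shared this order of mice.

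The genotype comparison in visWAT on HFD was not used to choose the genes and was tested. It does use the HFD visWAT libraries in which Tph2 and Htr2b were high, so for these genes it is not free of that choice. Tph2 was 1.0 lower on the log2(FPKM + 1) scale in MlklAdi-KO than in WT mice (SE 0.54), a difference that was not called (limma, adjusted p = 0.278). Htr2b had the same log2 difference, -1.0 (SE 0.36, limma, adjusted p = 0.221). Maoa differed by -0.10 (SE 0.14, limma, adjusted p = 0.662) and Maob by 0.25 (SE 0.16, limma, adjusted p = 0.344). Thus 0 of 4 members above the filter of a mean of 0.5 FPKM passed an adjusted p of 0.05, where 3 of 13963 genes did, or 0.0215%. The MlklAdi-KO HFD mice varied more than the WT HFD mice, with an SD of 12.9 against 4.12 FPKM for Tph2 and of 1.73 against 0.806 FPKM for Htr2b.

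The carriers were under that filter, and they were the members whose genotypes did not overlap. Slc6a4 lies on chromosome 11 (76889429 to 76923166) and Slc18a2 on chromosome 19 (59249328 to 59284444). Slc6a4 was at 0.611, 0.415, 0.422, 0.427 and 0.5 FPKM in WT HFD visWAT and at 0.235, 0.23, 0.287, 0.247 and 0.144 FPKM in MlklAdi-KO HFD visWAT, from 21 to 84 reads a library. Slc18a2 was at 0.561, 0.514, 0.57, 0.466 and 0.537 FPKM in WT and at 0.39, 0.393, 0.307, 0.344 and 0.268 FPKM in MlklAdi-KO HFD visWAT. For both carriers every MlklAdi-KO mouse lay below every WT mouse, including mice 152 and 153, whose Tph2 was as high as in the WT mice. This held for 2 of 9 members and for 1.23% of 23116 genes with at least 10 reads. By edgeR's quasi-likelihood test on recovered reads, the log2 differences were -1.03 for Slc6a4 (adjusted p = 0.275) and -0.62 for Slc18a2 (adjusted p = 0.282), so neither was called. Mast cell marker sums, 54.7 to 119 FPKM in WT and 26.2 to 64.2 FPKM in MlklAdi-KO HFD visWAT, moved the same way with 0 of 8 markers called by limma, and their part was not tested.

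On NCD the 2 oxidases were the only members above the filter in visWAT, and neither difference between genotypes was called. Maoa differed by 0.09 (SE 0.16, limma, adjusted p = 0.935) and Maob by 0.12 (SE 0.11, limma, adjusted p = 0.916) between MlklAdi-KO and WT mice. By limma 0 of 14063 genes (0%) passed, with 528 at an unadjusted p under 0.05, while edgeR called 0 genes and DESeq2 called 8. Slc18a2 was at 0.436, 0.363, 0.452 and 0.531 FPKM in WT and at 0.269, 0.355, 0.315 and 0.218 FPKM in MlklAdi-KO NCD visWAT, with no overlap. That made 1 of 9 members lower in every MlklAdi-KO mouse, against 0.764% of 22772 genes, and edgeR's quasi-likelihood test gave a log2 difference of -0.66 (adjusted p = 0.811). Slc18a2 shares 475 bases of exon with Pdzd8 and 111 bases with Gm29261 on the opposite strand, and Pdzd8 was at 2.65 to 4.07 FPKM in visWAT.

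Whether the diet difference depended on genotype was asked with an interaction term over the 18 visWAT libraries. The term compares the diet differences that chose the genes, and Tph2 and Htr2b passed the filter by their HFD values alone, so for the members it is given with no p. It was -1.01 for Tph2 (SE 0.64), -1.02 for Htr2b (SE 0.43), -0.19 for Maoa (SE 0.22) and 0.13 for Maob (SE 0.21). No gene of 14136 (0%) was called by limma, with 1867 genes at an unadjusted p under 0.05. On recovered reads edgeR called 0 genes and DESeq2 called 20.

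Liver values did not choose the genes, so the diet difference was tested there. The livers came from the same mice as the visWAT, so they are not an independent set of animals. There the decarboxylase Ddc and the oxidase Maoa were lower on HFD, Maob was slightly higher, and the hydroxylases and receptors were nearly absent. Tph1 had 0 or 1 read and Tph2 0 to 2 reads per liver library, with 16 of 18 libraries at 0 for each. Htr2a had 0 to 2 reads, with 12 of 18 libraries at 0, and Htr2b had 0 to 4 reads. A Tph2 rise like that of visWAT was therefore not detected in liver at this depth.

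Ddc lies on chromosome 11 (11764101 to 11848144, minus strand) and shares 421 bases of exon with 1700042O10Rik on the opposite strand. It was at 15.3, 21.3, 21.0 and 15.7 FPKM in WT NCD liver and at 12.4, 10.9, 8.03, 8.04 and 11.0 FPKM in WT HFD liver. In MlklAdi-KO liver it was at 14.1, 17.2, 14.7 and 13.5 FPKM on NCD and at 12.3, 7.03, 10.4, 4.93 and 6.28 FPKM on HFD. Every HFD liver lay below every NCD liver of its genotype. The mean fell from 18.3 ± 3.23 to 10.1 ± 1.95 FPKM in WT mice (SD, n = 4 and 5), a log2 difference of -0.81 (SE 0.15, limma, adjusted p = 0.00469). In MlklAdi-KO mice it fell from 14.9 ± 1.63 to 8.18 ± 3.05 FPKM (SD, n = 4 and 5), a log2 difference of -0.85 (SE 0.22, limma, adjusted p = 0.0201). The latter call was lost without the NCD mouse 179 and with no filter on low genes (limma, adjusted p = 0.0508 each).

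Maoa was at 3.87, 4.25, 4.77 and 3.9 FPKM in WT NCD liver and at 2.87, 3.06, 3.28, 2.87 and 3.71 FPKM in WT HFD liver. In MlklAdi-KO liver it was at 4.74, 4.15, 4.36 and 4.82 FPKM on NCD and at 2.64, 2.79, 3.69, 3.0 and 2.27 FPKM on HFD. The diets did not overlap in either genotype. Maoa fell by 0.32 on the log2 scale in WT liver (SE 0.079, limma, adjusted p = 0.016) and by 0.52 in MlklAdi-KO liver (SE 0.1, limma, adjusted p = 0.00603). On the TPM scale (transcript abundance as a share of the library) the WT call was lost (limma, adjusted p = 0.0553). The HFD and NCD difference of Maoa thus had opposite signs in liver and visWAT, and the difference between tissues was not tested.

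Maob, by far the more abundant oxidase of the liver, was at 81.0, 84.7, 96.3 and 84.0 FPKM in WT NCD liver and at 99.6, 105, 108, 101 and 103 FPKM in WT HFD liver. In MlklAdi-KO liver it was at 88.3, 97.0, 83.2 and 78.6 FPKM on NCD and at 100, 95.8, 112, 102 and 103 FPKM on HFD. The diets did not overlap in WT mice, and in MlklAdi-KO mice NCD mouse 179 lay above HFD mouse 152. Maob rose by 0.25 in WT liver (SE 0.058, limma, adjusted p = 0.0117) and by 0.24 in MlklAdi-KO liver (SE 0.074, limma, adjusted p = 0.0441). The MlklAdi-KO call was lost in 7 of 9 fits that left out 1 mouse, with adjusted p up to 0.11 by limma.

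Of the members above the filter, 3 of 3 were called in WT liver, where 25.3% of 13330 genes were, and 3 of 4 in MlklAdi-KO liver, where 22.2% of 13149 genes were. The uncalled one was Slc18a2, with a difference of -0.02 (SE 0.11, limma, adjusted p = 0.928). Hepatocyte markers moved in the same libraries: their sum was 55476 to 63127 FPKM in WT NCD and 42329 to 49156 FPKM in WT HFD liver, and 60184 to 66509 against 46588 to 56843 FPKM in MlklAdi-KO liver. That sum was led by Alb, and by limma 0 of the 5 rose and 1 fell in WT liver, while 1 rose and 2 fell in MlklAdi-KO liver. None of the 5 was at 0 in a group, and their part in the Ddc and Maoa values was not tested.

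**Figure D3:**
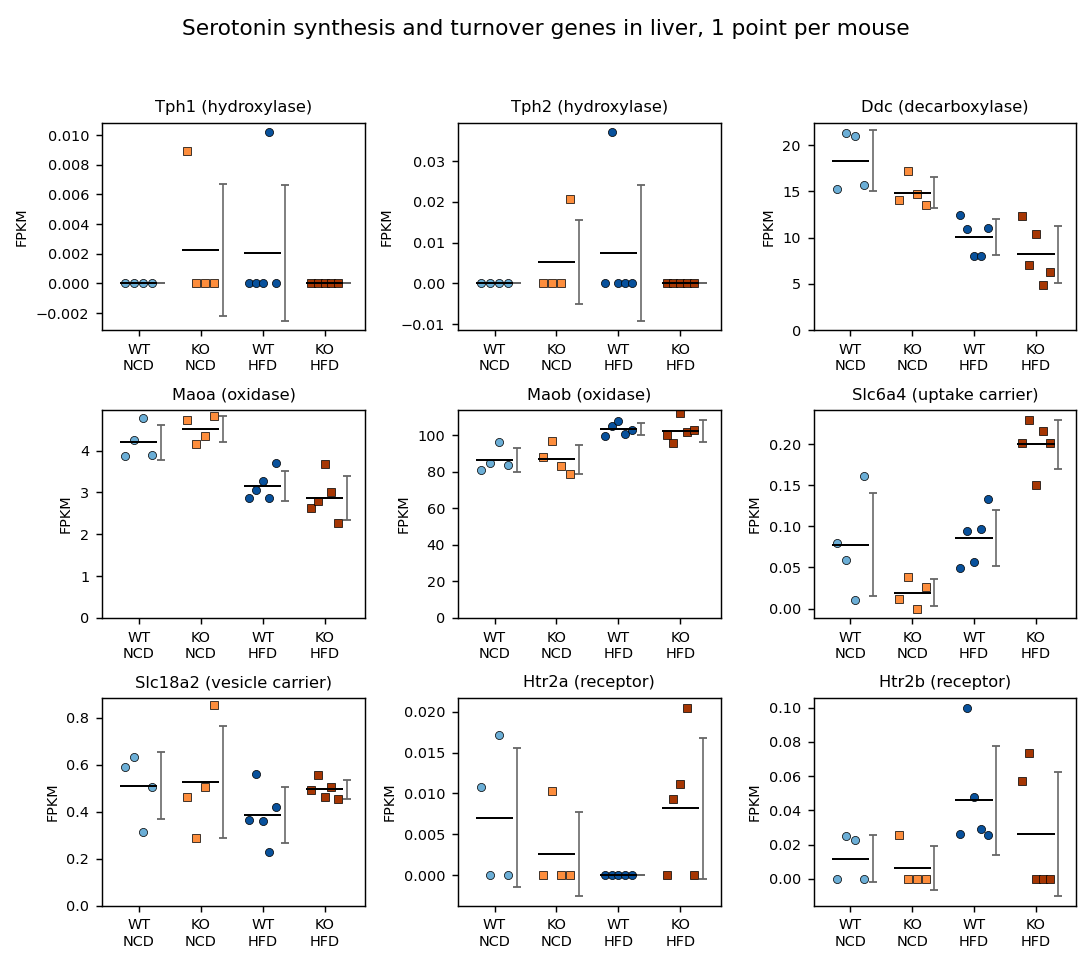
FPKM of the 9 genes in liver (vertical axes, a scale of its own per gene), with 1 point per mouse, the group mean as a black line and 1 SD to each side as a grey bar. Ddc and Maoa are lower and Maob higher on HFD, and the points of Tph1, Tph2, Htr2a and Htr2b stand for 0 to 4 reads.

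Slc6a4, the uptake carrier, was under the filter in liver and rests on 0 to 20 reads a library. It was at 0.08, 0.0589, 0.0106 and 0.162 FPKM in WT NCD and at 0.0494, 0.0942, 0.0564, 0.0969 and 0.133 FPKM in WT HFD liver. In MlklAdi-KO liver it was at 0.0122, 0.038, 0 and 0.0262 FPKM on NCD and at 0.202, 0.23, 0.151, 0.216 and 0.202 FPKM on HFD. The WT diet groups overlapped, and the MlklAdi-KO groups did not. It was the only one of 5 members with enough reads whose MlklAdi-KO HFD livers all lay above the NCD livers, which 8.53% of 20071 genes did. By edgeR's quasi-likelihood test on recovered reads, an alternative added after the values were seen, the log2 difference was 3.30 in MlklAdi-KO liver (adjusted p = 0.00189), resting on 6 reads in all on NCD and 78 on HFD. That test called 3 of 5 members there (Ddc, Maoa and Slc6a4) and 14.7% of 20071 genes. In WT liver the difference was 0.15 (edgeR, adjusted p = 0.911), and the interaction of genotype and diet, 3.13, was not called (edgeR, adjusted p = 0.414).

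No member of the liver passed the threshold between genotypes by limma. On HFD Ddc differed by -0.32 (SE 0.21, limma, adjusted p = 0.589), Maoa by -0.11 (SE 0.095, limma, adjusted p = 0.695) and Maob by -0.01 (SE 0.048, limma, adjusted p = 0.95) between MlklAdi-KO and WT mice. That is 0 of 3 members, where 0.197% of 13215 genes were called. On NCD 0 of 4 members and 0.00758% of 13193 genes were called. Ddc was then at -0.27 (SE 0.13, limma, adjusted p = 0.996) and Maoa at 0.09 (SE 0.079, limma, adjusted p = 0.996). The interaction of genotype and diet called 0 of 3 members in liver and 0.0151% of 13248 genes, with -0.04 for Ddc (SE 0.28, limma, adjusted p = 0.996).

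Slc6a4 stood apart from the other members by the order of its values. In liver on HFD all MlklAdi-KO mice lay above all WT mice (mean 0.2, SD 0.0299, against mean 0.0859, SD 0.0338 FPKM, 5 mice each), as 1 of 6 members and 1.01% of 20533 genes did. The edgeR quasi-likelihood test gave a log2 difference of 1.22 there (adjusted p = 0.231), with no call. In visWAT on HFD the order was the reverse, with a mean of 0.229 FPKM (SD 0.0523) in MlklAdi-KO mice and of 0.475 FPKM (SD 0.0835) in WT mice. The difference between the tissues was tested after this was seen. By edgeR's quasi-likelihood test the MlklAdi-KO effect in visWAT minus that in liver was -2.24 on the log2 scale (adjusted p = 0.0271), the only call among 9 members, where 5 of 25290 genes (0.0198%) were called. With the mouse as a replicate block the difference was -2.28 and the call was lost (edgeR, adjusted p = 0.237), and it was lost in 6 of 10 fits that left out 1 mouse.

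**Figure D4:**
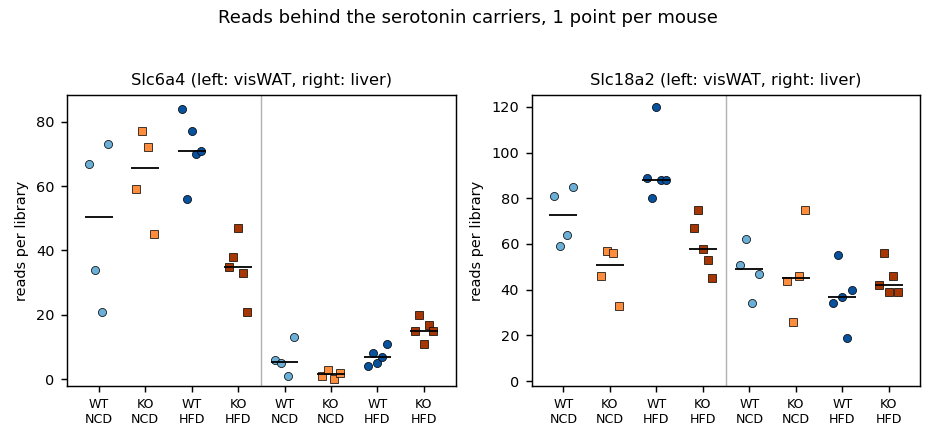
Reads per library of Slc6a4 and Slc18a2 (vertical axes, linear) in visWAT, left of the grey line, and liver, right of it, with 1 point per mouse and a line at the group median. Slc6a4 in KO HFD mice has 21 to 47 reads in visWAT and 11 to 20 in liver, against 56 to 84 and 4 to 11 reads in WT HFD mice.

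**Figure D5:**
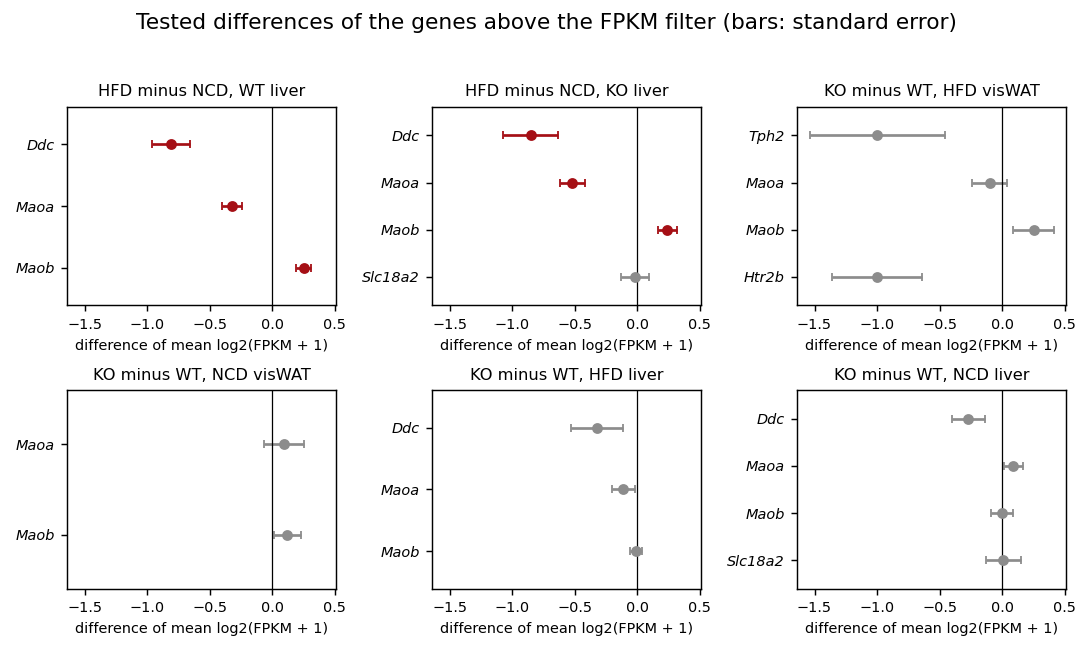
Differences of mean log2(FPKM + 1) with their standard errors for the members above the filter, in the 6 diet and genotype comparisons tested (HFD minus NCD, or KO minus WT). Red points passed an adjusted p of 0.05 by limma: all 3 in WT liver, Ddc, Maoa and Maob in KO liver, and none in the 4 genotype comparisons.

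Between tissues of the WT mice Ddc and Maob were higher in liver on both diets and Maoa was higher in visWAT on HFD, while Slc18a2 overlapped on both diets and Maoa on NCD. The RNA of the tissues was extracted with different kits, so kit and tissue cannot be told apart. The FPKM scaling also differed between the tissues. On the TPM scale the median of all genes (visWAT minus liver) went from -0.03 to 0.52 on NCD and from -0.01 to 0.95 on HFD. The size of a tissue difference thus depends on the scale. Ddc was 453-fold higher in liver than in visWAT on NCD (log2 difference of visWAT minus liver -4.20, SE 0.12, limma, adjusted p = 1.23e-08), where the visWAT side rests on 4 to 8 reads a library. On HFD it was 113-fold higher with all 5 mice and 194-fold higher without mouse 154, whose visWAT value was the highest (log2 difference -3.33, SE 0.12, limma, adjusted p = 1.28e-10, with all 5). Maob was higher in liver on NCD by a log2 difference of -1.96 (SE 0.12, limma, adjusted p = 2.23e-06) and on HFD by -3.49 (SE 0.087, limma, adjusted p = 8.26e-12). Maoa was 0.37 higher in visWAT on NCD, short of the threshold (SE 0.15, limma, adjusted p = 0.0622), and 1.61 higher on HFD (SE 0.11, limma, adjusted p = 4.13e-08). With the mouse as a replicate block, or without the visWAT and liver libraries of mouse 183, the NCD difference of Maoa was called (limma, adjusted p = 0.0463 and 0.0199). Tph2 and Htr2b, at 19.0 to 27.9 and 3.2 to 5.11 FPKM in WT HFD visWAT against at most 0.0371 and 0.1 FPKM in liver, share the HFD visWAT libraries that chose them. By limma 2 of 3 members tested were called on NCD, where 65.5% of all genes were. On HFD Ddc, Maoa and Maob were called, where 84.6% of all genes were, and Tph2 and Htr2b, also above the filter, are not counted.

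Ordered by level per length on HFD, the WT visWAT means were 22.7 FPKM for Tph2, 11.8 for Maoa, 8.37 for Maob and 4.35 for Htr2b, followed by Slc18a2 at 0.53, Slc6a4 at 0.475, Tph1 at 0.138, Htr2a at 0.0965 and Ddc at 0.0894 FPKM. The ranges of Maoa and Maob overlapped, those of Slc18a2 and Slc6a4 overlapped, and so did those of Tph1, Htr2a and Ddc. On NCD the order was Maob, Maoa, Slc18a2, Slc6a4 and then the other 5, each at a mean of at most 0.133 FPKM. In WT HFD liver it was Maob, Ddc, Maoa, Slc18a2 and Slc6a4, with the other 4 at 0 to 4 reads.

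The wider pathway was described by 8 lists with 65 genes. In visWAT 9 of 28 genes above the filter rose and 5 fell with HFD in WT mice (32.1% and 17.9%, against 21.9% and 15.8% of all genes), and 12 of 33 rose and 4 fell in MlklAdi-KO mice (36.4% and 12.1%, against 23.3% and 20.3% of all genes). The medians over the lists were 0.20 and 0.19 on the log2 scale, and -0.01 and 0.01 over all genes. None of the 12 other serotonin receptors passed the filter in any comparison. No gene of these lists was called in a genotype or interaction comparison by limma.

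Tetrahydrobiopterin is the cofactor that tryptophan hydroxylase needs, and all 8 genes of its list passed the filter in visWAT. In WT visWAT 2 of them rose with HFD and 1 fell, and in MlklAdi-KO visWAT 5 rose and 1 fell. Gch1, the first enzyme of its synthesis, rose from 0.659 ± 0.135 to 1.32 ± 0.179 FPKM in WT mice (SD, n = 4 and 5), a log2 difference of 0.48 (SE 0.084, limma, adjusted p = 0.00171). Pcbd1, which recycles it, rose by 1.18 (SE 0.23, limma, adjusted p = 0.00361). Pts, its second enzyme, fell by 0.68 on the log2 scale (SE 0.073, limma, adjusted p = 8.62e-05). In MlklAdi-KO visWAT Pcbd1 rose by 0.98 and Pcbd2 by 0.63, and Pts fell by 0.69 on the log2 scale.

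After monoamine oxidase an aldehyde remains, which aldehyde dehydrogenases clear. On that list, with serotonin conjugation, 2 of 8 genes rose and 3 fell in WT visWAT, and 4 rose and 2 fell in MlklAdi-KO visWAT. Aldh2, the mitochondrial dehydrogenase, went from 226 ± 62.7 to 88.5 ± 3.72 FPKM in WT mice (SD, n = 4 and 5), a log2 difference of -1.30 (SE 0.18, limma, adjusted p = 0.000396), and differed by -0.96 in MlklAdi-KO mice. The sulfotransferase Sult1a1 fell by 0.71 on the log2 scale in WT visWAT. Akr1b3, an aldose reductase, rose by 0.80 in MlklAdi-KO visWAT.

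In liver 11 of 41 genes of the lists rose and 7 fell with HFD in WT mice (26.8% and 17.1%, against 13.2% and 12.1% of all genes), and 8 rose and 8 fell in MlklAdi-KO mice (19.5% each, against 11.9% and 10.3%). The kynurenine route, the main way tryptophan is broken down in liver, had 3 rising and 3 falling genes of 11 in WT and 4 and 4 of 11 in MlklAdi-KO liver. Its first-step enzyme Ido2 rose by 0.76 in WT liver (SE 0.13, limma, adjusted p = 0.00252) and by 1.09 in MlklAdi-KO liver. Tdo2, the enzyme known for that step in liver and named after its values were seen, was far more abundant and not called, at 443 ± 77 and 468 ± 45.3 FPKM in WT NCD and HFD liver (SD, n = 4 and 5; log2 difference 0.09, limma, adjusted p = 0.646) and with a difference of 0.17 in MlklAdi-KO liver (limma, adjusted p = 0.163). The aminotransferases Kyat1 and Kyat3 fell by 0.67 and 0.66 in WT and by 0.57 and 0.62 in MlklAdi-KO liver on the log2 scale, and Aadat rose by 0.41 and 0.58. All 11 kynurenine genes tested were lower in visWAT than in liver of WT NCD mice by limma, as were 34% of all genes. Extraction kit and tissue cannot be told apart there.

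The cofactor and carrier lists also moved in liver. Qdpr, which regenerates tetrahydrobiopterin, fell by 0.66 on the log2 scale in WT (SE 0.058, limma, adjusted p = 0.000108) and by 0.60 in MlklAdi-KO liver. Gch1 fell by 0.42 and 0.31, opposite to its direction in WT visWAT, a difference that was not tested between tissues. The exporter Slc47a1 rose by 0.73 and 0.89, and the amino acid carrier subunit Slc3a2 fell by 0.50 and 0.37 in WT and MlklAdi-KO liver.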

How the data were processed

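The 9 genes, the wider pathway lists and the marker lists were chosen with earlier results of these data known. The authors trimmed paired-end reads of polyA-selected RNA with fastp, aligned them to mouse mm39 (GRCm39) with HISAT2 and counted them with featureCounts 1.5.0-p3; whether the counting used strand was not given in the sources used here. They deposited FPKM for 56748 genes in all 36 libraries, which are the values used here. Read counts were deposited by the authors only for genes listed in their 4 genotype comparison tables, and served to recover reads: FPKM values were whole multiples of 1 read for 100% of values within 0.01 reads. Fold changes, p-values and enrichment results in the deposited tables are the authors' own and were not used, nor were 72 other columns of values per sample.

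Each comparison was fitted with limma 3.58.1 (R 4.3.3, trend, two-sided) on log2(FPKM + 1) over genes with a mean of at least 0.5 FPKM in the libraries compared, with Benjamini-Hochberg adjustment over all genes tested and a threshold of 0.05. Only the groups compared entered a fit, except for the interaction of genotype and diet, which used 18 libraries of a tissue. As alternatives, the pseudocount was set to 0.1, the filter was dropped or raised to a mean of 1 FPKM, values were put on the TPM scale, and the fits were repeated with edgeR 4.0.16 (quasi-likelihood) and DESeq2 1.42.0 on recovered reads, without each mouse in turn, without WT NCD mice 182 and 183, and with the mouse as a replicate block. The edgeR fit on genes with at least 10 reads in sum, and the genotype by tissue test, were added after the values were seen. Fits were tested on simulated data.

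Named genes were the 9 members, the called genes of each wider list with the largest log2 difference (up to 4 per list and comparison), and the 5 genes most correlated with Tph2. These called genes are named for the lists described, except for 1 that is not reported here. Each library is 1 mouse, so replicates are separate animals. The 64 pairs of libraries within groups differed by a chi-square of at least 9.82 per gene over genes with at least 20 reads, so none was a repeat. Liver and visWAT are paired because both come from the same mouse; the correlation of their deviations from the group means over 14657 genes ranged from -0.052 to 0.223 (median 0.028), above 0.1 in 2 of 18 mice. Intervals and floors were not computed, and 0 reads in a library limits what can be said of genes near that level.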

Additional observations from a re-analysis of the deposited data

Results flagged for a closer look

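In 5 of 54 groups of 4 or 5 mice with at least 10 reads of a member in some library, 1 mouse stood far from the others. How often that arises by chance in genes with so few reads was not computed. All 5 were high values of low genes in visWAT. Tph1 was at 0.164 FPKM (31 reads) in WT NCD mouse 183, whose library also held the seminal vesicle and epididymis markers, against 0.0137 to 0.0239 FPKM in the other mice. Tph2 was at 0.255 FPKM (25 reads) in MlklAdi-KO NCD mouse 197, against 0.0839 to 0.0954 FPKM. That library had 82.4 FPKM of the same markers in sum, and its macrophage sum, 412 FPKM, was the highest on NCD.

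The other 3 were values of Ddc. It was at 0.62 FPKM (85 reads) in MlklAdi-KO NCD mouse 179, against 0.0198 to 0.0752 FPKM in the other mice of its group. In WT HFD mouse 154 it was at 0.251 FPKM (34 reads), against 0.0151 to 0.0667 FPKM. In MlklAdi-KO HFD mouse 156 it was at 0.106 FPKM (14 reads), against 0.0273 to 0.0435 FPKM.

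For Slc6a4 on HFD, the MlklAdi-KO effect in visWAT minus that in liver was -2.24 on the log2 scale. The difference was called in a fit without pairing by mouse, chosen after the values were seen (edgeR's quasi-likelihood test, adjusted p = 0.0271, with 5 mice per group and tissue). With the mouse as a replicate block the call was lost. Every MlklAdi-KO mouse lay below every WT mouse in visWAT and above every WT mouse in liver. The adjusted p was 0.0157 by limma with no filter, and 0.237 (edgeR) and 0.16 (limma) with the mouse as a replicate block. It ranged from 0.023 to 0.14 by edgeR with 1 mouse left out, and the liver values rest on 4 to 20 reads a library.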

How the results depend on the processing

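The log2 diet difference of Tph2 in visWAT, 4.38 in WT and 3.37 in MlklAdi-KO mice, depended on how low values were treated: it was 6.72 and 5.55 with a pseudocount of 0.1, 6.12 and 4.81 on the TPM scale, 7.48 and 6.77 by edgeR, 7.51 and 6.83 by DESeq2, and 7.51 and 6.79 by edgeR on genes with at least 10 reads. With 1 mouse left out it was 4.31 to 4.44 and 3.02 to 3.81. The members called between tissues went from 2 to 6 on NCD and from 5 to 8 on HFD with no filter. They went to 7 on NCD and 8 on HFD by edgeR on genes with at least 10 reads. More members were tested there, and the HFD counts include Tph2 and Htr2b. Calls over all genes rose too, from 9527 of 14544 on NCD and 12414 of 14666 on HFD. They were 11920 of 30209 and 17016 of 31260 with no filter, and 12261 of 22557 and 17200 of 23360 by that edgeR fit. The number of genes tested rose more, so the share of all genes that was called fell. Nothing is read from the rise in member calls. With the mouse as a replicate block 3 members were called on NCD, as were 8989 of 14544 genes. Leaving out 1 mouse gave 2 to 3 between tissues on NCD, 3 to 3 in WT liver and 2 to 3 in MlklAdi-KO liver. It gave 0 to 0 in every genotype comparison and in the liver interaction. Over all genes those fits called 7728 to 9986 between tissues on NCD, 2661 to 3773 in WT liver and 2240 to 2799 in MlklAdi-KO liver. They called at most 37 genes in a genotype comparison and at most 5 in the liver interaction. On the TPM scale the median of all genes moved most between the tissues of WT mice, to 0.52 on NCD and 0.95 on HFD. In visWAT it moved to 0.42 for the WT diet comparison, 0.35 for genotype on NCD and -0.45 for the interaction.

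In the planned comparisons, signs turned for differences near 0 that were not called. Maob between genotypes in NCD visWAT (0.12) was -0.01 without WT mice 182 and 183, Slc18a2 in NCD liver (0.01) was -0.01 with a pseudocount of 0.1, and the visWAT interaction of Maob (0.13) was -0.33 on the TPM scale. With 1 mouse left out, Maoa in NCD visWAT ranged from -0.05 to 0.19, Maob in HFD liver from -0.04 to 0.01, Slc18a2 in NCD liver from -0.06 to 0.09, and the liver interaction of Ddc from -0.19 to 0.10 and of Maob from -0.07 to 0.04. The liver calls of Maob in MlklAdi-KO mice were also lost with no filter (limma, adjusted p = 0.0713), on the TPM scale (0.0948) and by edgeR on genes with at least 10 reads (0.0536). In the genotype by tissue test on HFD, edgeR and limma with no filter gave opposite signs for Tph2 (1.88 and -0.99), Tph1 (0.61 and -0.10) and Ddc (-0.47 and 0.27), none called. Apart from leaving out single mice, 358 of 399 values kept their direction and their side of the threshold or moved by less than the spread.

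Over all genes, DESeq2 called 146 against 3 by limma for genotype in HFD visWAT, 259 against 26 in HFD liver, 19 against 1 in NCD liver and 58 against 2 for the liver interaction. Without MlklAdi-KO mouse 153 limma called 16 genes in HFD visWAT, without WT mouse 165 it called 14 for the visWAT interaction, and with no filter 7 in HFD liver; the cause was not tested. Depth limits Tph1, Htr2a, Slc6a4 in liver and every NCD value of Tph2 and Htr2b, which rest on few reads.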

Other observations

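Markers of connective tissue varied with Tph2 as well. Fibroblast markers summed to 132 to 186 FPKM in WT NCD, 182 to 218 in MlklAdi-KO NCD, 311 to 377 in WT HFD and 184 to 380 FPKM in MlklAdi-KO HFD visWAT, and over the 10 HFD libraries the sum had r = 0.933 with Tph2 (rho = 0.806, and r = 0.916 without the 2 libraries farthest from the median). The cholangiocyte list, whose leading gene in HFD visWAT was Spp1 (osteopontin, which macrophages also make), had r = 0.923, whereas the smooth muscle and pericyte list had r = -0.861 and the endothelial list r = -0.852, which was -0.533 without those 2 libraries. These are descriptions over 10 mice of 2 genotypes, with no test.

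Otop1, the second nearest gene to Tph2 on HFD, was at 0.0951 to 6.87 FPKM in WT NCD and 0.0853 to 0.201 FPKM in MlklAdi-KO NCD visWAT, against 2.99 to 3.61 FPKM in WT HFD and 0.691 to 3.93 FPKM in MlklAdi-KO HFD visWAT. Its NCD range in WT mice therefore reached above its HFD range, which that of Tph2 did not. Loxl2 was at 2.1 to 4.15 FPKM in WT NCD and 7.15 to 8.78 FPKM in WT HFD visWAT.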
